A study of Mus musculus with 32 samples.

Results

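The 9 genes described here are ligands, receptors, targets and a feedback inhibitor of the transforming growth factor beta (TGF-beta) pathway, namely Tgfb1, Tgfb2, Tgfb3, Tgfbr1, Tgfbr2, Ltbp2, Tgfbi, Ccn2 and Smad7. They were chosen by name out of 54446 genes in the count tables, and all 9 were matched by gene identifier and passed the filter on low counts in each experiment. Their expression was measured by bulk RNA-seq in 32 libraries from orthotopic tumors, grown from the BALB/c-derived liver cancer line BNL-MEA injected under the liver capsule of BALB/c mice. All mice carried the same cell line, so every group rests on 1 tumor model in a host with an intact immune system. The libraries came from 3 experiments, each with its own vehicle. One tested 2 oral doses of the multikinase inhibitor regorafenib, 5 mg/kg/day (called low, 3 libraries) and 20 mg/kg/day (called high, 3 libraries), beside 4 vehicle libraries. Another set 3 libraries of the low dose beside 3 of DC-101, an antibody against the VEGF receptor VEGFR2 injected intraperitoneally at 800 µg on each of days 1, 3 and 5, and 4 of vehicle. The last held 3 libraries each of vehicle, the low dose, anti-PD1 antibody, and both drugs combined. They are called the dose experiment, the DC-101 experiment and the anti-PD1 experiment. The labels gave neither the ages and sexes of the mice nor the animal behind each library, and the sources speak of several sequenced tumors per group for the anti-PD1 experiment only, so p-values measure the spread between these libraries.

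TGF-beta is secreted as a latent complex in which the ligand is held by its own propeptide and anchored to the matrix by latent TGF-beta binding proteins. Once released, it binds the type 2 receptor, which recruits and phosphorylates the type 1 receptor, and the signal is carried to the nucleus by SMAD proteins. In liver and liver tumors the pathway is known for matrix deposition by stellate cells and fibroblasts, for restraint of epithelial growth and for suppression of T cell responses.

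Levels are given as log2 CPM (read counts scaled to the size of the library, corrected by TMM within an experiment, with 2 added counts), and a change is the difference of 2 groups on the log2 scale with its standard error (SE). Library totals ran from 16.8 to 27.7 M counts, and the lowest count of any of the 9 genes in any library was 116. All 10 macrophage and 20 hepatocyte marker genes were above 0 counts in every library, and so were the 7 tumor epithelial ones. Among the latter, median levels ran from −0.94 log2 CPM for Afp, a fetal liver gene of many hepatocellular carcinomas, to 5.63 for Krt18. Levels of hepatocyte marker genes differed widely between libraries, and the share of host liver itself was not measured. The hepatocyte score (mean log2 CPM of 20 marker genes) ranged from 0.00 to 6.61 among vehicle libraries of the DC-101 experiment, and it reached 11.95 in high dose replicate 1. That library also stood apart with a TMM factor of 0.678 and 5.37% mitochondrial counts, so the genes past the threshold at the high dose are given with and without it. In the anti-PD1 experiment, replicate 2 of vehicle and replicate 2 of the low dose had the lowest mitochondrial shares of the 32 libraries (0.26% and 0.312%), with TMM factors of 0.931 and 0.867. The low dose one differed from the others of its group by a chi-square per degree of freedom of 371 to 384, against 31.7 between those, and the low dose changes of Tgfb1, Tgfb2, Tgfb3, Ltbp2 and Ccn2 there are given with and without it. In tissue of this kind, fewer cells of a type and less RNA per cell cannot be told apart.

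Per kilobase of exon, the matrix protein gene Tgfbi had the highest level of the 9 genes in the 11 vehicle libraries, at 7.42 ± 0.23 log2 CPM per kb (SD). Tgfb3 was the most abundant ligand transcript on this scale (5.49 ± 0.68), followed by Tgfb1 (4.81 ± 0.38), and Tgfb3 lay above Tgfb1 in 9 of the 11 libraries. Ccn2 (4.68 ± 0.50) and Tgfbr2 (4.40 ± 0.26) came next and did not differ from their upper neighbor beyond the spread, with mean differences of 0.13 ± 0.70 and 0.28 ± 0.63. The type 1 receptor Tgfbr1 (3.83 ± 0.28) lay below the type 2 receptor Tgfbr2 in 11 of 11 libraries. Ltbp2 (3.56 ± 1.25) and Smad7 (2.85 ± 0.59) had overlapping ranges, and Tgfb2 was the lowest (2.31 ± 0.36), below Smad7 in 10 of 11 libraries.

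**Figure D1:**
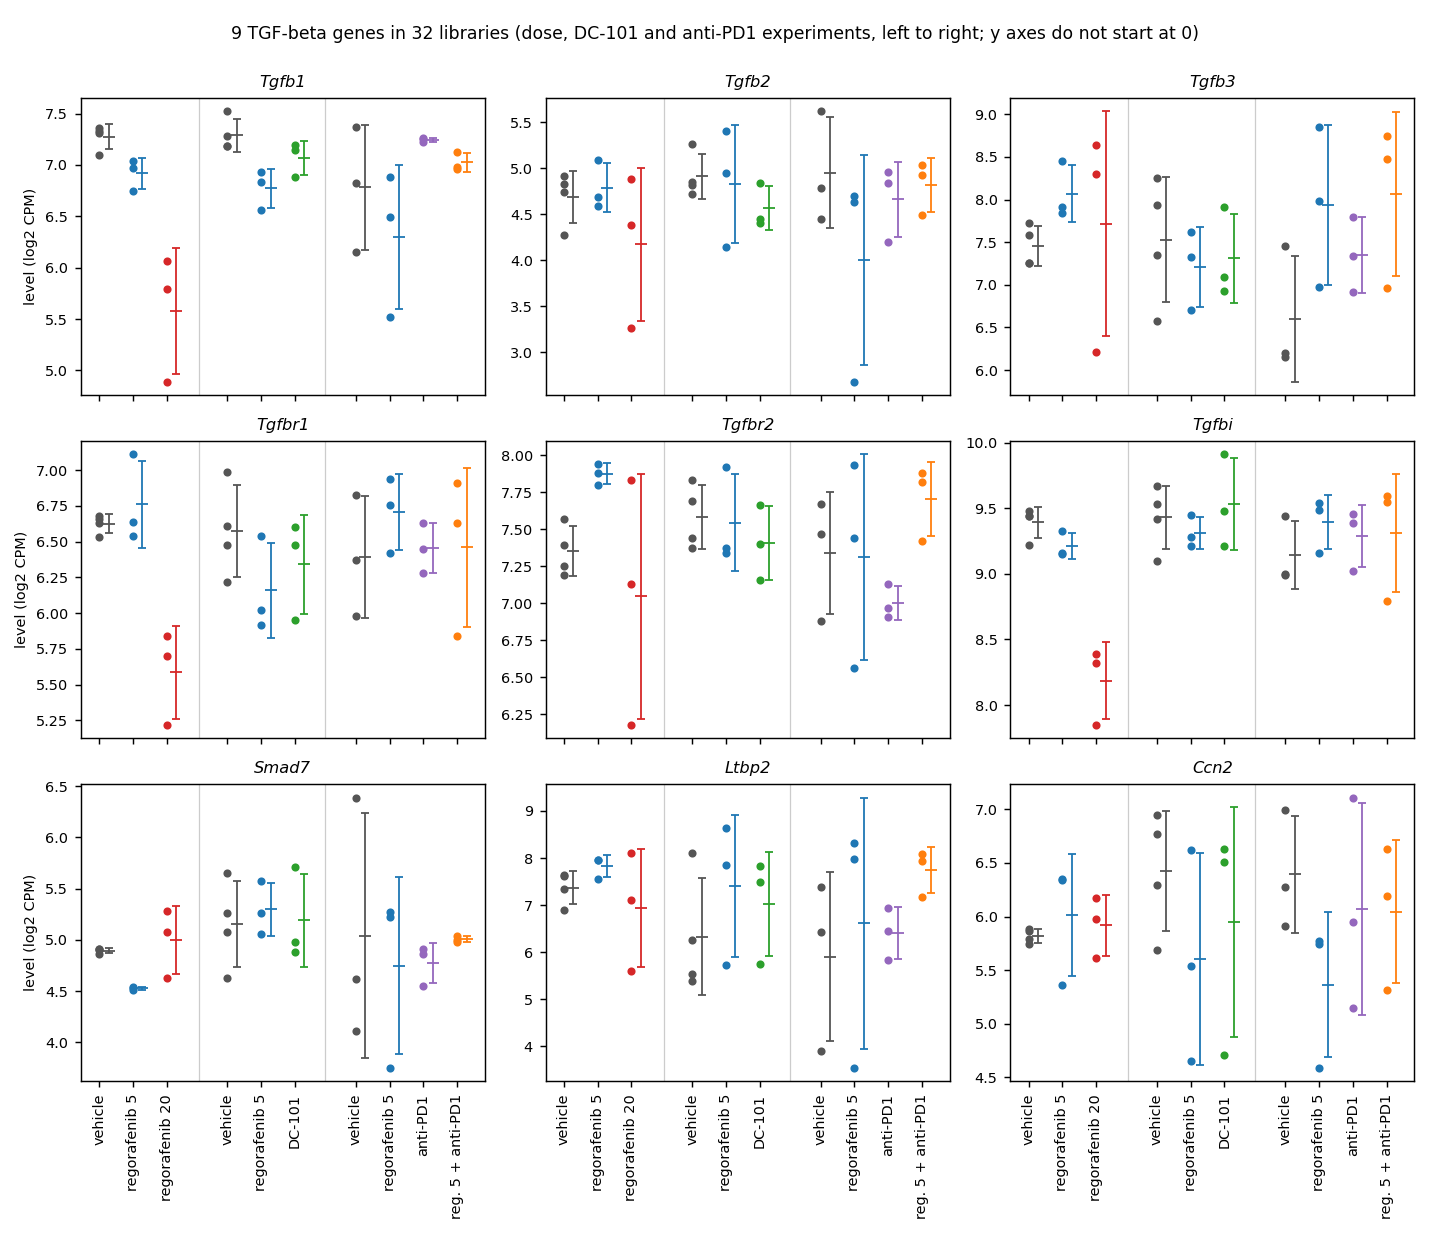
Level of each of the 9 genes (y axis, log2 CPM) in each library (points) by group (x axis, regorafenib doses in mg/kg/day), with the group mean and SD beside the points. Tgfb1, Tgfbr1 and Tgfbi lie lower in the 3 high dose libraries than in all 4 vehicle libraries, and Ltbp2 spreads from 3.54 to 8.63 over the 32 libraries.

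The first question was whether the dose of regorafenib changed these genes. Against vehicle, 3 of the 9 fell at the high dose, the ligand gene Tgfb1, the type 1 receptor gene Tgfbr1 and the target gene Tgfbi, and none rose. Over all 16525 genes tested, 15.6% passed the same threshold in either direction (edgeR quasi-likelihood test, Benjamini-Hochberg adjusted p of 0.05) and 6.82% were lower. The 9 genes were named with earlier results of these data in view, so this is a description of them. The median change of the 9 genes was −0.16, beside 0.02 for all genes tested.

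Tgfb1 encodes the ligand best known from immune and stromal cells. Its levels were 7.31, 7.10, 7.36 and 7.33 log2 CPM in the vehicle libraries, 6.75, 7.04 and 6.97 at the low dose and 4.89, 5.79 and 6.06 at the high dose. The 3 groups did not overlap, with the high dose lowest and the low dose between. The change at the high dose was −1.62 ± 0.25 (SE), to 32.6% of vehicle (adjusted p = 0.0187), and against the low dose it was −1.26 ± 0.26 (adjusted p = 0.0359).

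Tgfbr1, the receptor kinase that phosphorylates the SMAD proteins, measured 6.53, 6.68, 6.66 and 6.63 log2 CPM with vehicle, 7.11, 6.64 and 6.54 at the low dose and 5.70, 5.84 and 5.22 at the high dose. All 3 high dose libraries lay below every other library of the experiment. The change was −1.01 ± 0.19, to 49.5% of vehicle (adjusted p = 0.0265).

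Tgfbi, a secreted matrix protein named for its induction by TGF-beta, measured 9.44, 9.22, 9.48 and 9.44 log2 CPM with vehicle, 9.16, 9.33 and 9.15 at the low dose and 7.85, 8.39 and 8.32 at the high dose. The high dose libraries were again separate from the rest, whereas the low dose and vehicle ranges met. The change was −1.19 ± 0.16, to 43.8% of vehicle (adjusted p = 0.0148).

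Between the 2 doses directly, the same 3 genes fell, where 4.22% of all genes passed and 2.48% were lower. The change of Tgfbr1 was −1.17 ± 0.20 and that of Tgfbi −1.01 ± 0.17 (adjusted p = 0.0198 for each). Without high dose replicate 1, all 3 genes still passed against vehicle, at −1.32 ± 0.15 for Tgfb1, −1.05 ± 0.21 for Tgfbr1 and −1.03 ± 0.13 for Tgfbi, and Tgfb3 passed as well, at 1.04 ± 0.22 (adjusted p = 0.037). Against the low dose the 3 genes also passed without that library, at −0.97 ± 0.15, −1.22 ± 0.22 and −0.84 ± 0.13.

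The sizes were steadier than the calls. Leaving out any 1 library moved the change of Tgfb1 between −1.90 and −1.32, that of Tgfbr1 between −1.14 and −0.90 and that of Tgfbi between −1.29 and −1.03, but without vehicle replicate 1, 3 or 4 none of the 9 genes passed, and without vehicle replicate 2 only Tgfbi did. Without low dose replicate 1, Tgfb1 no longer passed. Without a vehicle library the adjusted p-values ran up to 0.0646 for Tgfb1, 0.0779 for Tgfbr1 and 0.0565 for Tgfbi, and with only the 2 groups in the fit none of the 9 genes passed (adjusted p from 0.0624 to 0.0669 for these 3). Against the low dose, Tgfb1 did not pass when any 1 vehicle or low dose library, or high dose replicate 2, was left out (adjusted p from 0.065 to 0.16, change from −1.33 to −1.22), Tgfbr1 did not without low dose replicate 1 or 2, and Tgfbi did not when any 1 low dose library was left out.

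Markers of other cell types moved in the same libraries. All 10 macrophage markers were tested and 8 of them fell at the high dose, with the macrophage score (mean log2 CPM of the list) at 7.82, 7.27, 7.92 and 7.70 with vehicle, 8.49, 8.39 and 8.23 at the low dose and 6.05, 7.12 and 6.36 at the high dose. Because the score separated the high dose from vehicle as the 3 genes did, the fall of the genes and the fall of the macrophage markers cannot be told apart. The hepatocyte score was 4.50, 6.56, 5.64 and 7.62 with vehicle and 11.95, 9.46 and 6.62 at the high dose, and 3 of its 20 markers rose. High dose replicate 3, whose hepatocyte score lay within the vehicle range, held the lowest Tgfbr1 of the experiment (5.22), a Tgfbi of 8.32 and, at 6.06, the highest Tgfb1 of its group. When that score was added to the fit, Tgfb1 (−1.34 ± 0.25, adjusted p = 0.0459) and Tgfbi (−1.02 ± 0.19, adjusted p = 0.0458) kept the call and Tgfbr1 (−1.11 ± 0.25, adjusted p = 0.0752) did not. Of all genes, 0.92% passed in that fit and 0.581% were lower, fewer than without the score. The fibroblast and stellate score of 10 genes was 5.07 to 5.58 with vehicle and 5.11 to 6.64 at the high dose, with 1 of 10 higher. Of 7 T cell markers 4 rose (score 0.13 to 1.15 with vehicle, 1.36 to 2.69 at the high dose), of 7 tumor epithelial markers 3 rose (1.84 to 2.87, then 3.85 to 5.01), of 12 endothelial markers 2 fell (3.96 to 4.96, then 2.68 to 5.01), and 1 of 5 platelet markers tested fell. The part of these lists in the result was not tested.

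**Figure D2:**
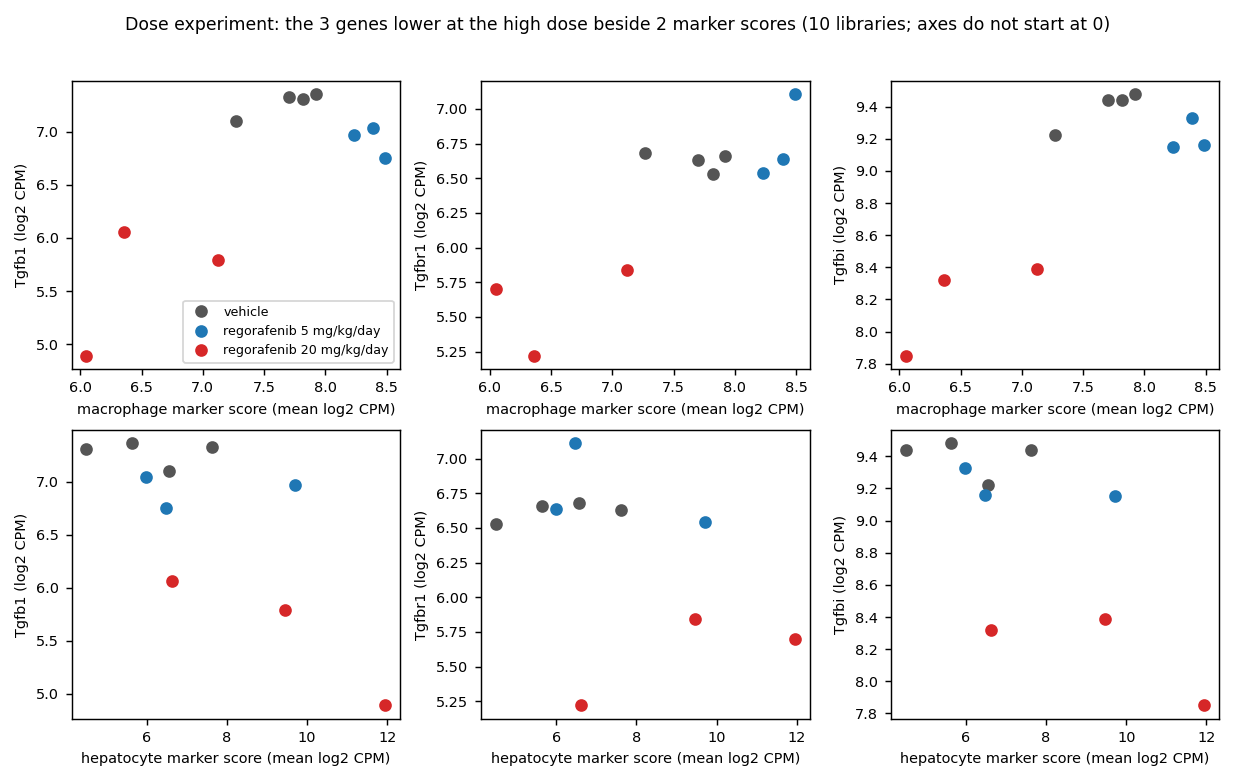
Tgfb1, Tgfbr1 and Tgfbi (y axes, log2 CPM) against the macrophage score (top row) and the hepatocyte score (bottom row; x axes, mean log2 CPM of the marker list) in the 10 libraries of the dose experiment, 1 point per library. The high dose libraries lie apart from vehicle in the macrophage score (at most 7.12 against at least 7.27), while 1 of them shares the hepatocyte range of vehicle.

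The regions before the start sites of these 3 genes are shown because the genes fell together. Sequences are from RefSeq (GRCm38.p6), plus strand, on chr7:25686752-25687001 for Tgfb1, chr4:47352972-47353221 for Tgfbr1 and chr13:56609336-56609522 for Tgfbi, the last ending where the annotated first exon begins. Capitals mark GC boxes (GGGCGG) and SMAD boxes (CAGAC), each searched on both strands, with no overlap between the marked letters.
Tgfb1: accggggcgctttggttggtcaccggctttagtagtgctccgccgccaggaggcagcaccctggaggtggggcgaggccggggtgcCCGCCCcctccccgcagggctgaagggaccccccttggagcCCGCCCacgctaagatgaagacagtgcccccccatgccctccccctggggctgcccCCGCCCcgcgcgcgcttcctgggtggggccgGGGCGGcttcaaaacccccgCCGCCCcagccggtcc
Tgfbr1: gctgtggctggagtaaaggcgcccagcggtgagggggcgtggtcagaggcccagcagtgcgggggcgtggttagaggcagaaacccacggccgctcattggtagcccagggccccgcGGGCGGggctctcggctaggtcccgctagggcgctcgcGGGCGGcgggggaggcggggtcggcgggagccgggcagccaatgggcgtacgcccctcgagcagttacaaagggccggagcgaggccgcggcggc
Tgfbi: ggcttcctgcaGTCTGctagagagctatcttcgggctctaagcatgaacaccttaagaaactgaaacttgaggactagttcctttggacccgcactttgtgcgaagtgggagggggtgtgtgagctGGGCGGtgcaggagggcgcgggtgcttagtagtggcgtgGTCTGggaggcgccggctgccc
The Tgfb1 stretch held 5 GC boxes and 0 SMAD boxes, that of Tgfbr1 held 2 and 0, and that of Tgfbi held 1 and 2. Within 250 bases before the start, 32.7% of 32851 promoters held a GC box and 42.2% a SMAD box. In the other windows matched, Ltbp2, which did not pass the threshold, held 2 GC boxes and 2 SMAD boxes, Tgfb2 held 0 and 2, and Tgfbr2 and a second start of Tgfbr1 each held 0 and 1. None of the 7 windows held an AP-1 site (TGANTCA), which 6.75% of all promoters did. No entry was matched for Tgfb3, Ccn2 or Smad7.

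The second question was whether the low dose, given alone in all 3 experiments, moved these genes. No member passed the threshold in any experiment. Of all genes, 0% passed in the dose experiment (817 of 16525 at an unadjusted p under 0.05). The DC-101 experiment gave 0.0248%, and the anti-PD1 experiment 0% (1964 of 16615 unadjusted). In a fit over the 9 low dose and 11 vehicle libraries with experiment as a term, 1.77% of 15562 genes passed and none of the 9 did, with 1 of them, Tgfb1, at an unadjusted p under 0.05. The test of a difference between experiments passed for 0% of genes (1481 at an unadjusted p under 0.05, 1 of the 9 genes among them). Under DESeq2 the difference test called 100 genes.

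Among the ligands, Tgfb1 was lower with the low dose in each experiment without passing the threshold. In the DC-101 experiment its levels were 7.18, 7.52, 7.18 and 7.28 log2 CPM with vehicle and 6.56, 6.93 and 6.83 with the low dose, and the groups did not overlap (−0.52 ± 0.13, adjusted p = 0.131, edgeR). The anti-PD1 experiment gave 6.82, 6.15 and 7.37 with vehicle and 6.49, 5.52 and 6.88 with the low dose, so the ranges overlapped (−0.46 ± 0.35, and −0.16 ± 0.29 without low dose replicate 2). The change in the dose experiment was −0.35 ± 0.24, and over the 3 experiments it was −0.44 ± 0.15, to 73.5% of vehicle (adjusted p = 0.14, edgeR), with 8 of 9 low dose libraries below their vehicle mean. Without the anti-PD1 experiment the same value, −0.44, passed with an adjusted p of 0.013 (edgeR). That was the only pass among 12 alternatives, and none of the 20 fits that left out 1 library passed.

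Tgfb3 encodes a ligand known from mesenchymal cells and palate development. Its low dose change was 0.62 ± 0.45 in the dose experiment, −0.40 ± 0.41 beside DC-101 and 1.40 ± 0.57 beside anti-PD1 (unadjusted p = 0.0311, adjusted p = 0.373). In the last of these, vehicle measured 7.45, 6.15 and 6.20 log2 CPM and the low dose 7.98, 6.97 and 8.85, so that 1 vehicle library lay among the treated ones. Without low dose replicate 2 the change was 1.75 ± 0.54 and without vehicle replicate 2 it was 1.18 ± 0.65. The hepatocyte score there was 7.95, 7.87 and 8.21 with vehicle and 6.41, 7.34 and 4.38 with the low dose, and with that score in the fit the change of Tgfb3 was 0.29 ± 0.57 (adjusted p = 0.89, edgeR). The 3 changes differed with an unadjusted p of 0.0393, which did not pass adjustment (adjusted p = 0.506). At the high dose Tgfb3 measured 6.21, 8.30 and 8.64, with replicate 1 below every vehicle library and the other two above (0.57 ± 0.45, adjusted p = 0.37).

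Tgfb2, a ligand of epithelial and stromal cells, ranged from 2.68 to 5.62 log2 CPM over the 32 libraries. Its changes against vehicle over single experiments ran from −0.79 ± 0.48 with the low dose in the anti-PD1 experiment to 0.10 ± 0.34 with the low dose in the dose experiment, and none passed. The lowest library was replicate 2 of the low dose beside anti-PD1, and without it the change there was −0.38 ± 0.35, against −1.42 ± 0.59 with the hepatocyte score in the fit.

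Of the receptors, Tgfbr2, which binds the ligand first, rose in no comparison past the threshold. Its low dose libraries in the dose experiment (7.94, 7.80 and 7.88 log2 CPM) all lay above vehicle (7.39, 7.19, 7.57 and 7.25), with a change of 0.51 ± 0.31 (adjusted p = 0.991). At the high dose Tgfbr2 spread from 6.18 to 7.83. Tgfbr1 at the low dose changed by 0.16 ± 0.18, −0.42 ± 0.23 and 0.29 ± 0.30 in the experiments taken in the same order (dose, DC-101, anti-PD1), and 0.00 ± 0.14 over the 3.

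Ltbp2 encodes a latent TGF-beta binding protein of elastic matrix, which itself does not bind the ligand. It was the most variable of the 9 genes, with a range of 5.09 log2 units over the 32 libraries and an SD of 2.67 in the low dose group of the anti-PD1 experiment (7.99, 3.54 and 8.32 log2 CPM). The vehicle group of that experiment held 6.42, 3.90 and 7.39, so replicate 2 was the low library in both groups. That low dose library was the lowest of its group for 8 of the 9 genes, all but Tgfbr1, and that vehicle library for 6 of 9. The low dose change of Ltbp2 in that experiment was 1.12 ± 0.95, 1.68 ± 0.70 without low dose replicate 2, 0.62 ± 0.93 without vehicle replicate 2 and 0.17 ± 1.29 with the hepatocyte score in the fit. Over the 3 experiments the low dose change was 0.86 ± 0.51 (adjusted p = 0.437), with 7 of 9 low dose libraries above their vehicle mean.

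Ccn2, a matricellular protein and classical TGF-beta target, changed by 0.26 ± 0.23, −0.68 ± 0.57 and −1.0 ± 0.53 with the low dose, again in that order. In the anti-PD1 experiment all 3 low dose libraries (5.74, 4.59 and 5.77 log2 CPM) lay below vehicle (5.91, 6.99 and 6.28), with an adjusted p of 0.495. That change was −0.70 ± 0.55 without low dose replicate 2, −0.64 ± 0.56 without vehicle replicate 2 and −1.62 ± 0.64 with the hepatocyte score in the fit, and it passed in none of these. Tgfbi at the low dose changed by at most 0.25 ± 0.28 in any experiment and by −0.03 ± 0.10 over the 3. Ccn2 at the high dose changed by 0.12 ± 0.24, while Tgfbi fell as described.

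Smad7, the inhibitory SMAD that is itself induced by the signal and blocks the type 1 receptor, was tightly spaced with vehicle and with the low dose in the dose experiment, and less so at the high dose. Vehicle measured 4.90, 4.86, 4.91 and 4.91 log2 CPM, the low dose 4.51, 4.53 and 4.54 and the high dose 5.28, 4.63 and 5.08. The low dose thus lay below both other groups without overlap, with a change of −0.37 ± 0.15 against vehicle (unadjusted p = 0.0371, adjusted p = 0.989), and the high dose was 0.50 ± 0.16 above the low dose (adjusted p = 0.102). That difference passed under DESeq2 (0.52, adjusted p = 0.0323) and without high dose replicate 2 (0.65, adjusted p = 0.0384, edgeR). These were 1 of 10 alternatives and 1 of 10 fits that left out 1 library, and the others did not pass. In the other experiments the low dose changes were 0.11 ± 0.27 and −0.49 ± 0.54, and vehicle replicate 3 of the anti-PD1 experiment was high at 6.39 beside 4.62 and 4.11.

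Counted by separation of the groups alone, 4 of the 9 genes did not overlap between low dose and vehicle in the dose experiment (Tgfb1, Tgfb3, Tgfbr2 and Smad7), beside 13.9% of all genes. The count was 1 in the DC-101 experiment (Tgfb1, background 16.4%) and 1 in the anti-PD1 experiment (Ccn2, background 14%). For the high dose it was 3, beside 28.3%. No gene was separate from its vehicle in more than 1 of the 3 low dose comparisons except Tgfb1.

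**Figure D3:**
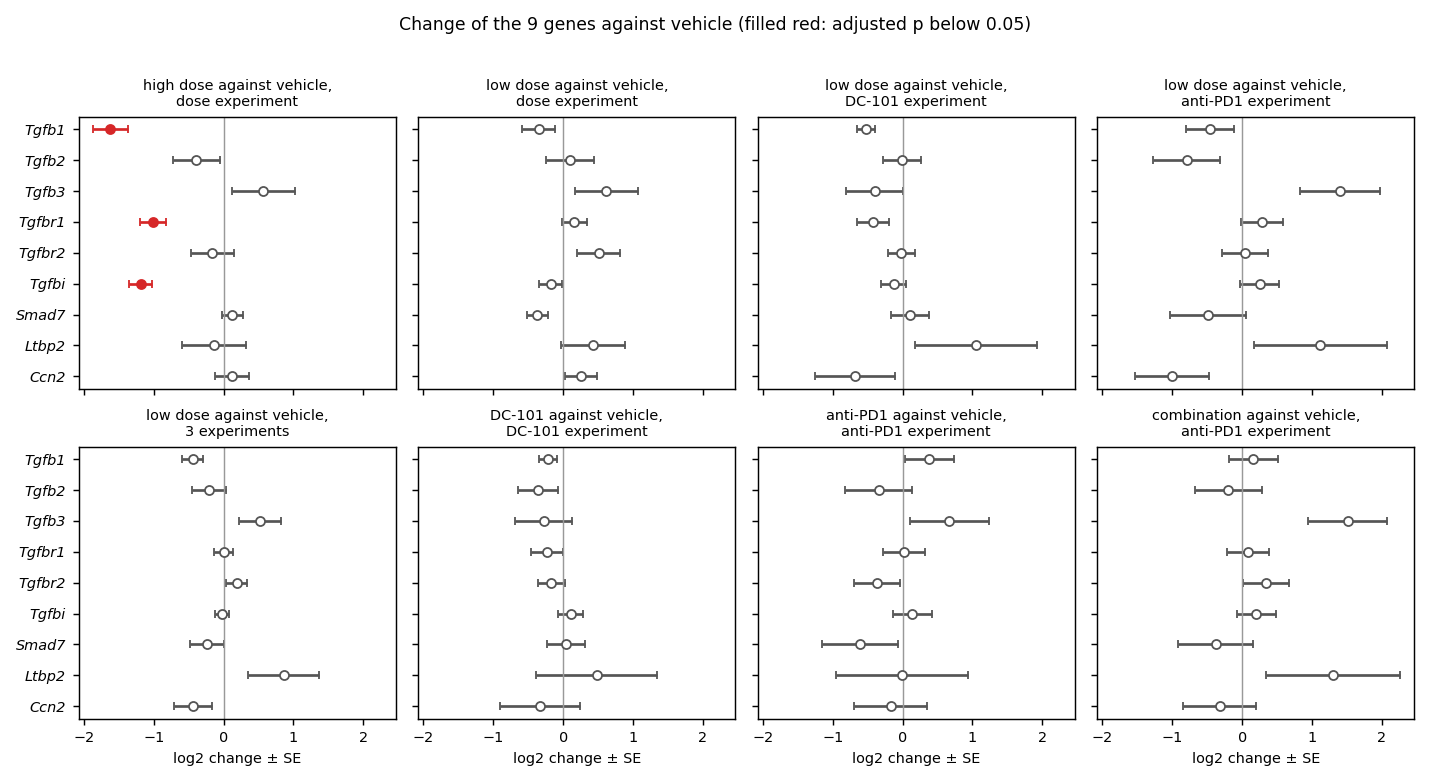
Change of each of the 9 genes (y axis) against vehicle on the log2 scale with its SE (x axis) in 8 comparisons (panels). Filled red points passed an adjusted p of 0.05, which Tgfb1, Tgfbr1 and Tgfbi did at the high dose, and the Tgfb1 point lies below 0 in all 4 low dose panels.

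The third question was what the other treatments did. With DC-101 no member passed (0% of 16138 genes passed, 2131 at an unadjusted p under 0.05), and the changes ran from −0.36 ± 0.28 for Tgfb2 to 0.48 ± 0.87 for Ltbp2. Tgfb1 measured 7.19, 6.88 and 7.14 log2 CPM with DC-101, a change of −0.22 ± 0.13 against vehicle. Low dose regorafenib against DC-101 gave −0.30 ± 0.14 for Tgfb1 (unadjusted p = 0.0604), and 0% of genes passed. No member was separate from vehicle with DC-101, beside 13.4% of all genes.

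With anti-PD1 alone Tgfb1 measured 7.25, 7.26 and 7.22 log2 CPM, within the vehicle range of 6.15 to 7.37, for a change of 0.38 ± 0.35. The combination measured 6.96, 6.98 and 7.13. Neither treatment called any gene against vehicle (0% of 16615 for each, 2269 and 1362 at an unadjusted p under 0.05), nor did the combination against anti-PD1 (0%, 1443 unadjusted). Tgfb3 with the combination was 6.96, 8.75 and 8.47, a change of 1.51 ± 0.57 against vehicle (unadjusted p = 0.0219, adjusted p = 0.538). Its 3 libraries overlapped vehicle, and none of the 9 genes was separate from vehicle with anti-PD1 (background 16.6%) or the combination (17.7%). Between the combination and anti-PD1, 4 of the 9 did not overlap, beside 30.3% of all genes, with changes of −0.22 ± 0.35 for Tgfb1, 0.71 ± 0.33 for Tgfbr2, 0.23 ± 0.54 for Smad7 and 1.32 ± 0.96 for Ltbp2.

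The rest of the pathway was described by 73 further genes in 5 lists by role, of which 71 were tested in the dose experiment. At the high dose 5 rose and 4 fell. In the BMP and activin arm (22 genes, 21 tested) 5 rose and 1 fell, among the 22 other targets reported here 2 fell, and 1 of 10 inhibitors fell. None of the latency and activation genes (11 tested) or the co-receptors and SMADs (7 tested) passed.

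Among the targets, Timp1, an inhibitor of matrix proteases, measured 7.05, 7.52, 7.07 and 7.30 log2 CPM with vehicle and 5.40, 5.88 and 5.94 at the high dose (−1.49 ± 0.19, adjusted p = 0.0143, edgeR). Junb, an AP-1 subunit, fell by 0.93 ± 0.23. Bhlhe40, a transcriptional repressor named after its values were seen, was 0.56 ± 0.17 above vehicle (adjusted p = 0.0533) and rose by 1.05 ± 0.19 against the low dose (adjusted p = 0.0237).

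In the BMP and activin arm, Bmp4 (2.26 ± 0.58) and Bmp6 (3.02 ± 0.73), ligands of the BMP branch, rose together with Chrd, a secreted BMP antagonist (3.07 ± 0.56), Smad9, a receptor-regulated SMAD of that branch (3.11 ± 0.74), and Acvr1b, a type 1 activin receptor (0.61 ± 0.16). All but Acvr1b were low in vehicle, with Bmp6 between −1.61 and −0.07 log2 CPM. For Bmp4, Bmp6, Chrd and Smad9, high dose replicate 3 was the lowest of its group and the 2 libraries with the higher hepatocyte scores lay above it, as 3.05 and 2.13 against 0.28 for Bmp6. Inhbb, the activin beta B subunit, fell by 1.92 ± 0.36, and Tgif1, a nuclear repressor of SMAD responses, by 0.61 ± 0.18 (adjusted p = 0.0499). When the hepatocyte score was added to the fit, of these 9 genes Inhbb (−2.23) and Timp1 (−1.35) passed, and Bmp2 passed besides. The other changes in that fit were 0.95 for Smad9, 1.11 for Bmp6, 1.23 for Bmp4, 1.68 for Chrd, 0.42 for Acvr1b, −0.77 for Junb and −0.37 for Tgif1, with adjusted p-values from 0.0944 to 0.346 (edgeR). Those of Smad9, Bmp6, Bmp4 and Chrd were thus well below their values without the score, whereas that of Junb was near it. Without high dose replicate 1, Timp1 (−1.32), Inhbb (−1.70) and Chrd (2.59) still passed, while Bmp4 (2.16), Bmp6 (2.29), Smad9 (1.82), Acvr1b (0.54), Junb (−0.72) and Tgif1 (−0.44) had adjusted p-values from 0.0663 to 0.161. Without vehicle replicate 3 or 4, no gene of the lists passed, without vehicle replicate 1 or 2 or low dose replicate 1 only Timp1 did, and without high dose replicate 3 the count was 30.

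**Figure D4:**
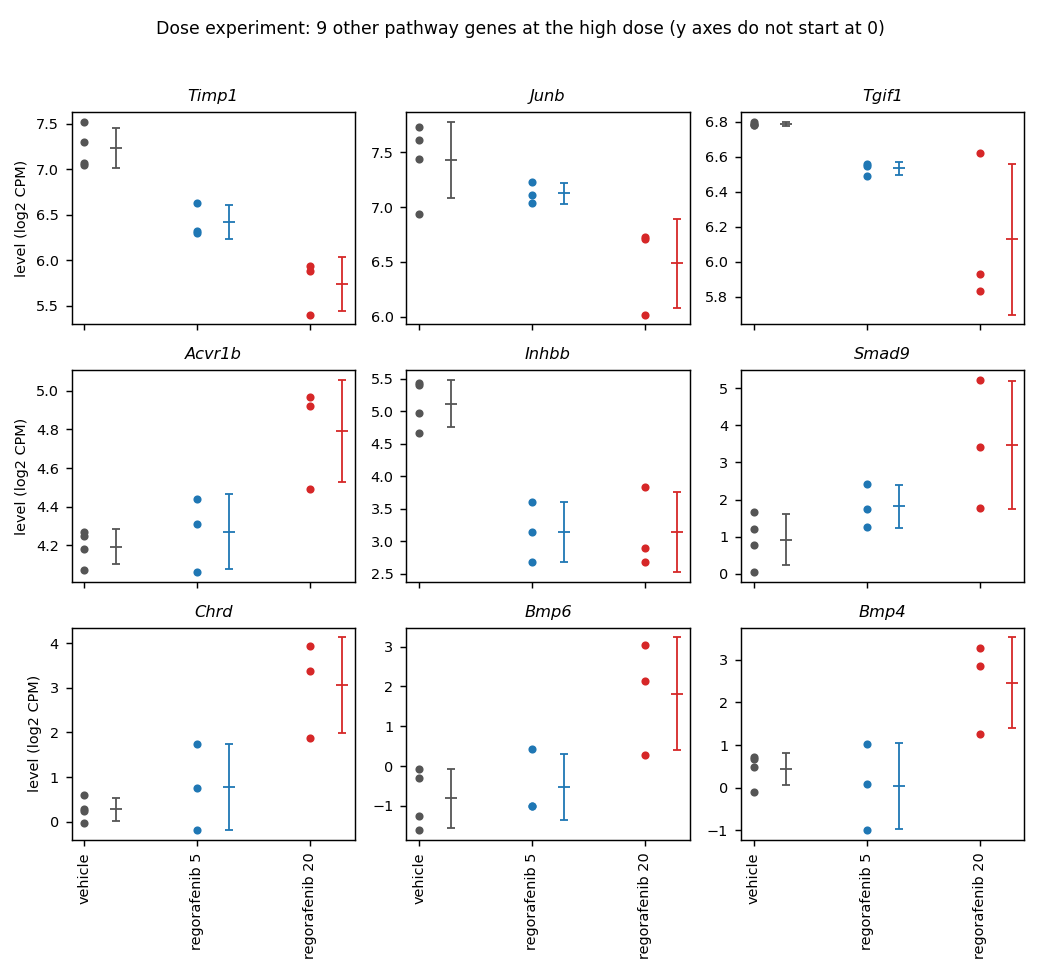
Level (y axis, log2 CPM) of 9 further pathway genes in the 10 libraries of the dose experiment by group (x axis, regorafenib doses in mg/kg/day), with the group mean and SD beside the points. The high dose points of Acvr1b, Smad9, Chrd, Bmp6 and Bmp4 lie above vehicle and those of Timp1, Junb, Tgif1 and Inhbb below it.

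With the low dose over the 3 experiments, 3 of 70 pathway genes passed, where 1.77% of all genes tested did. As above, this count only describes the chosen lists. Inhbb fell to 34.8% of vehicle (−1.52 ± 0.23, adjusted p = 0.00125, edgeR), with 9 of 9 low dose libraries below their vehicle mean and no overlap in any experiment. Its levels in the dose experiment were 4.67, 5.44, 4.97 and 5.40 log2 CPM with vehicle and 2.68, 3.14 and 3.60 with the low dose, and the high dose (2.68, 3.84 and 2.90) was as low. Its change with DC-101 was −1.37 ± 0.50 (adjusted p = 0.341, edgeR) and with anti-PD1 −0.84 ± 0.43. Every DC-101 library (2.64, 3.08 and 4.69) also lay below its vehicle group (4.83 to 5.35). So did every anti-PD1 library (3.35, 3.62 and 3.96 against 4.16 to 4.73). The combination measured 3.52, 3.55 and 4.16.

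Ltbp1, the binding protein that anchors latent TGF-beta to the matrix, rose by 0.68 ± 0.14 (adjusted p = 0.0138, edgeR), again with no overlap in any experiment. Its vehicle libraries in the anti-PD1 experiment were 7.24, 6.88 and 7.11 and its low dose libraries 8.49, 7.61 and 8.51. With DC-101 its change was −0.20 ± 0.15, and the low dose against DC-101 gave 0.65 ± 0.16 (unadjusted p = 0.00317, adjusted p = 0.473). With anti-PD1 alone Ltbp1 measured 7.98, 8.28 and 7.33 and with the combination 7.55, 8.20 and 8.06, so every library of both groups also lay above vehicle. Those changes were 0.83 ± 0.32 (adjusted p = 0.295) and 0.88 ± 0.32 (adjusted p = 0.519), and the one between the combination and anti-PD1 was 0.05 ± 0.32. At the high dose Ltbp1 was 5.95, 7.85 and 8.22 beside 7.77 to 8.02 with vehicle (−0.31 ± 0.42). Nrros, which holds latent TGF-beta on myeloid cells and was named after its values were seen, since its groups overlapped in both the DC-101 and the anti-PD1 experiment, rose by 0.55 ± 0.12 (adjusted p = 0.0307, edgeR). Nrros passed in 18 of 32 alternatives (adjusted p up to 0.355), against 30 of 32 for each of Inhbb and Ltbp1. Its call was lost when 1 of 9 libraries was left out. In the dose experiment these were replicates 1 and 3 of vehicle with 1 and 2 of the treated group, in the DC-101 experiment replicates 1 and 4 with 1 and 2, and beside anti-PD1 replicate 2 of vehicle. Nrros at the high dose was 0.89 ± 0.36 below vehicle (adjusted p = 0.1) and 1.63 ± 0.39 below the low dose (adjusted p = 0.0497).

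The macrophage score was 7.27 to 7.92 with vehicle and 8.23 to 8.49 with the low dose in the dose experiment, and overlapped between the groups in the other two experiments. Of 12 endothelial markers 8 fell with the low dose over the 3 experiments (median change −1.19), and the part of either cell type in these values was not tested. Without the dose or without the DC-101 experiment none of the pathway genes passed, and without the anti-PD1 experiment 8 did.

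**Figure D5:**
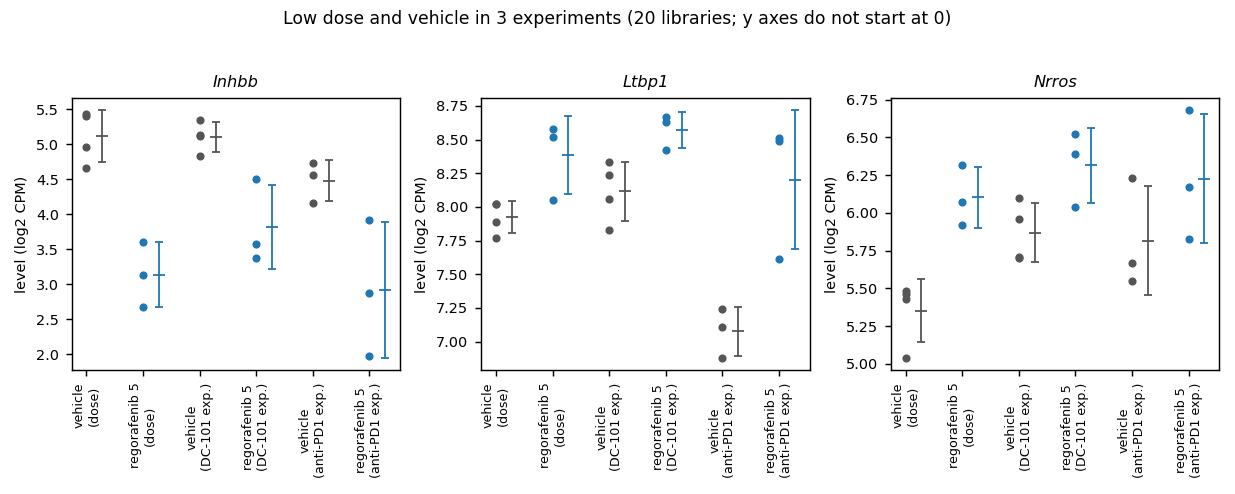
Inhbb, Ltbp1 and Nrros (y axes, log2 CPM) in the 20 vehicle and low dose libraries by experiment (x axis), with the group mean and SD beside the points. Inhbb lies lower and Ltbp1 higher with the low dose than in every vehicle library of the same experiment.

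In the other comparisons with vehicle no pathway gene passed, and the gene with the smallest p is named for each. These were Inhbb for the low dose in the dose experiment (−1.97 ± 0.36, adjusted p = 0.398, edgeR) and Acta2, smooth muscle actin, in the DC-101 experiment for both the low dose (−0.94 ± 0.20, adjusted p = 0.0992) and DC-101 (−0.91 ± 0.20, adjusted p = 0.309). Acta2 measured 8.66, 8.59, 8.16 and 8.43 log2 CPM with vehicle, 7.63, 7.75 and 7.16 with the low dose and 7.20, 7.63 and 7.79 with DC-101. With the low dose Acta2 went the other way elsewhere, without overlap. In the dose experiment it measured 8.81, 9.16 and 8.81 against 8.04 to 8.62 with vehicle (0.58 ± 0.38). In the anti-PD1 experiment it measured 9.18, 8.91 and 9.53 against 7.54 to 8.78. For the anti-PD1 experiment the gene with the smallest p was Fst, the activin antagonist follistatin, for the low dose (−2.42 ± 0.56, adjusted p = 0.246, edgeR) and anti-PD1 (−2.71 ± 0.57, adjusted p = 0.249). For the combination it was Loxl2, a matrix crosslinking enzyme (1.02 ± 0.26, adjusted p = 0.449).

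The genes whose pattern was most like each member were found over the 32 libraries after centering on the mean of each experiment, as a description across libraries that share treatment groups. Tgfb1 was most like Inava (Pearson r = 0.938) and Axl (0.923, but 0.416 within the DC-101 experiment), and Tgfbr1 was most like Sowahc (0.874) and the macrophage gene Mpeg1 (0.872). Tgfbi was most like Nupr1 (0.874) and Il1rl1 (0.840). Tgfb3 was most like Ephb3 (0.901) and Insyn1 (0.845), Tgfb2 most like Pitpnm1 (0.878) and Exoc6b (0.865), and Tgfbr2 most like Atp8a1 (0.869) and Wdfy4 (0.868). Ltbp2 was most like D030025P21Rik (0.914) and Cdk6 (0.901), and Smad7 most like 4930402H24Rik (0.891) and Ulk3 (0.874). The closest genes to Ccn2 were further off, Srpx2 (0.716) and Spry1 (0.709), and within the dose experiment the first of these was at −0.073. Among the 9 genes themselves, Tgfbr1 and Tgfbi were the most alike (0.768), then Tgfb1 and Tgfbi (0.701), while Tgfbr1 and Smad7 were the least (−0.270).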

How the data were processed

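The authors trimmed reads from stranded mRNA libraries with cutadapt 2.4, aligned them to GRCm38 with STAR 2.7.2a and deposited its raw read counts per Gencode M19 gene, in 1 table per experiment. Which strand column was kept was not given in the sources used here. From these counts, edgeR 4.0.16 (R 4.3.3) filtered genes (filterByExpr, minimum count 10, total 15), scaled by TMM and fitted all groups of an experiment with its robust quasi-likelihood test, p-values being adjusted by Benjamini-Hochberg over all genes (threshold 0.05). Levels are log2 CPM with a prior count of 2. The low dose was also fitted over 3 experiments with experiment as a term. Exon lengths came from Gencode M21 on GRCm38. On simulated counts with 200 genes changed by 2 log2 units, 73.5% were recovered for the low dose in the dose experiment. No libraries of a group were duplicates (chi-square per degree of freedom at least 12.9). Named pathway genes were those past the threshold against vehicle without overlap, or else the smallest p. The members and lists were chosen with earlier results of these data known. A pathway gene that is not reported here was left out of its list and of the list's counts after the values had been seen, so these counts are not set against the share over all genes. Alternatives were other scalings and filters, DESeq2 1.42.0, limma 3.58.1 (voom), a replicate block, a hepatocyte covariate and leaving out libraries or experiments.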

Additional observations from a re-analysis of the deposited data

Results flagged for a closer look

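For Tgfbr1 and Tgfbi the low dose libraries lay on opposite sides of the vehicle mean in different experiments, though the groups overlapped and no change passed the threshold. Every low dose library lay below the vehicle mean for Tgfbr1 in the DC-101 experiment (log2 change −0.42) and above it in the anti-PD1 experiment (0.29), and a fit over the 3 experiments gave an adjusted p of 0.576 for the difference (edgeR). For Tgfbi every low dose library lay below the vehicle mean in the dose experiment (−0.18) and above it in the anti-PD1 experiment (0.25), with an adjusted p of 0.71 for the difference. With the hepatocyte score as a covariate both changes in the anti-PD1 experiment were below 0, at −0.15 and −0.03. No library of a vehicle group of 4 lay far enough from the others to be singled out in any of the 18 groups of 4 values screened.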

How the results depend on the processing

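The 3 genes that fell at the high dose kept their direction under every alternative run, but not their side of the threshold. Beside 3 genes past it against vehicle, total count scaling left 1 (Tgfbr1), the replicate block 0 and a fit of only the 2 groups 0, and against the low dose the same settings left 1, 0 and 0. Leaving out 1 library gave 0 to 4 genes against vehicle and 0 to 3 against the low dose. Over all genes the high dose calls against vehicle (2582) ranged from 15 to 7030 when 1 library was left out, with 282 under total count scaling, 152 with the hepatocyte covariate, 416 without the filter on low counts, 1 under the replicate block and 4 with only the 2 groups. Tgfb1 passed with the low dose under DESeq2 in the DC-101 experiment (1 gene) and without the anti-PD1 experiment in the fit over 3 experiments (1 gene). Smad7 passed between the doses under DESeq2 and without high dose replicate 2. The cause was not tested. Of same-numbered pairs of libraries, 2 of 9, 4 of 9 and 6 of 18 correlated above 0.1 in the 3 experiments. The highest value was 0.71, between replicate 3 of vehicle and of DC-101. Differently numbered pairs were not compared, so these counts do not show whether the replicate numbers pair the libraries.

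The counts of further pathway genes under these settings were added after the data had been seen. Beside 9 at the high dose, total count scaling gave 3, no filter on low counts 3, DESeq2 22, limma-voom 4, the replicate block 0, the hepatocyte covariate 3, only the 2 groups 0, and leaving out 1 library 0 to 30. Beside 3 with the low dose over 3 experiments, DESeq2 gave 11, leaving out the dose, DC-101 or anti-PD1 experiment 0, 0 and 8, and leaving out 1 library 2 to 5.

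Changes of members that were not past the threshold turned sign as follows, on the log2 scale. With the hepatocyte covariate the high dose against vehicle gave 0.10 for Tgfb2, 0.09 for Tgfbr2, 0.45 for Ltbp2 and −0.24 for Ccn2, and against the low dose 0.03 for Tgfb3. With it the low dose in the DC-101 experiment gave 0.03 for Tgfb2, 0.03 for Tgfbr2 and −0.06 for Smad7, and DC-101 gave −0.13 for Smad7. In the anti-PD1 experiment it gave −0.15 for Tgfbr1, −0.47 for Tgfbr2 and −0.03 for Tgfbi with the low dose, and −0.03 for Tgfb1, −0.51 for Tgfb3, −0.57 for Tgfbr1 and −0.22 for Tgfbi with anti-PD1. The combination gave −0.09 for Tgfbr1 against vehicle, and 0.10 for Tgfb1 and 0.36 for Ccn2 against anti-PD1. Total count scaling gave −0.07 for Smad7 and −0.08 for Ccn2 at the high dose against vehicle. Requiring 10 counts in every library gave 0.01 for Tgfb2 with the low dose in the DC-101 experiment, −0.02 for Tgfbr2 with the low dose beside anti-PD1 and −0.02 for Tgfbr1 with anti-PD1. The replicate block gave 0.07 for Tgfb2 and −0.05 for Smad7 with the low dose in the DC-101 experiment, −0.12 for Smad7 with DC-101 and 0.45 for Ltbp2 with anti-PD1. With limma-voom the values were −0.03 for Tgfbr2 with the low dose in the anti-PD1 experiment and 0.49 for Ltbp2 with anti-PD1, and without a filter 0.04 for the latter. Over 3 experiments, Tgfb2 was at 0.04 without the anti-PD1 experiment, Tgfbr2 at −0.01 and Tgfbi at 0.04 without the dose experiment, and Tgfbi at 0.02 without the DC-101 experiment.

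Of the changes that kept their sign or lay near 0, the hepatocyte covariate moved these by over 1.5 times, none past the threshold. In the DC-101 experiment Ccn2 went from −0.68 to −1.33 with the low dose and from −0.33 to −0.99 with DC-101. In the anti-PD1 experiment the low dose change went from 1.40 to 0.29 for Tgfb3, from 1.12 to 0.17 for Ltbp2, from −0.79 to −1.42 for Tgfb2 and from −1.0 to −1.62 for Ccn2. With anti-PD1 it gave −1.08 for Tgfb2, −0.93 for Ltbp2 and −0.91 for Ccn2, and between the combination and anti-PD1 1.59 for Tgfb3 and 1.95 for Ltbp2.

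Leaving out 1 library moved the following across 0. In the dose experiment these were Tgfb2 (−0.08 to 0.22) and Tgfbr1 (−0.05 to 0.28) with the low dose, Tgfbr2 (−0.61 to 0.17) and Ltbp2 (−0.89 to 0.31) with the high dose, and Tgfb3 (−0.50 to 0.41) between the doses. In the DC-101 experiment these were Tgfb2 (−0.33 to 0.28), Tgfbr2 (−0.22 to 0.08) and Smad7 (−0.04 to 0.30) with the low dose, and Tgfbi (−0.06 to 0.29), Smad7 (−0.26 to 0.23) and Ccn2 (−0.58 to 0.10) with DC-101. Between the low dose and DC-101 these were Tgfb3 (−0.33 to 0.22), Tgfbr2 (−0.07 to 0.25), Smad7 (−0.11 to 0.38) and Ltbp2 (−0.11 to 1.02). In the anti-PD1 experiment these were Tgfbr2 (−0.31 to 0.33) and Smad7 (−0.86 to 0.51) with the low dose, and Tgfb2 (−0.56 to 0.07), Tgfbr1 (−0.16 to 0.25), Smad7 (−0.97 to 0.40), Ltbp2 (−0.51 to 0.82) and Ccn2 (−0.86 to 0.19) with anti-PD1. With the combination these were Tgfb1 (−0.09 to 0.50), Tgfb2 (−0.42 to 0.21), Tgfbr1 (−0.15 to 0.34), Smad7 (−0.75 to 0.63) and Ccn2 (−0.64 to 0.04) against vehicle, and Tgfb2 (−0.06 to 0.29), Tgfbr1 (−0.17 to 0.32), Tgfbi (−0.08 to 0.27) and Ccn2 (−0.50 to 0.54) against anti-PD1. Over 3 experiments it was Smad7 (−0.32 to 0.03). Of the members' changes under all alternatives, 2022 kept direction and side of the threshold, 89 turned sign, 5 newly passed and 44 no longer did.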

Other observations

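The ratio of Tgfb3 to Tgfb1 within a library does not depend on how libraries are scaled, and it was examined after the values of both genes had been seen. Per kilobase of exon, the log2 ratio was 0.85, 0.73, 0.94 and 0.51 in the vehicle libraries of the dose experiment, 1.74, 1.38 and 2.05 at the low dose and 1.89, 3.09 and 3.16 at the high dose. The vehicle libraries lay below every treated library. In the anti-PD1 experiment the ratio was 1.20, 0.57 and −0.60 with vehicle and 2.06, 2.02 and 2.55 with the low dose, again without overlap. In the DC-101 experiment it was −0.02, 1.31, 1.32 and 0.64 with vehicle and 0.72, 1.27 and 1.06 with the low dose, where the ranges overlapped.

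Over the 3 experiments the low dose ratio was 2.0-fold that of vehicle (difference 1.0 on the log2 scale), and leaving out any 1 library moved the difference between 0.83 and 1.13. By experiment the low dose difference was 0.97 (dose), 0.20 (DC-101) and 1.82 (anti-PD1), and that of DC-101 itself was 0.00. The combination, which held the same low dose, had ratios of 0.57, 2.34 and 1.92, which overlapped vehicle (difference 1.22), and anti-PD1 alone differed by 0.29. At the high dose it was 1.96, and 2.37 without high dose replicate 1. Because the pair was picked for values already seen, these are descriptions and no test is given.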
